A study of Mus musculus with 4 samples.

Results

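The Slc25 genes encode the mitochondrial carrier family, here taken as all protein-coding genes of GENCODE M21 whose symbol starts with Slc25a. This rule gave 47 genes of 21951 protein-coding genes. m6A meRIP-seq, in which RNA fragments carrying N6-methyladenosine are captured with an antibody and sequenced beside unselected input RNA, was used to map methylated sites in these transcripts. The cells were Kit+ foetal liver cells from C57BL/6 mice, enriched with magnetic beads, which per the study's methods were Ythdf2 CTL cells. Their Ythdf2 fl/fl alleles carry GFP fused to YTHDF2 and loxP sites around an exon, with no Cre, so every sample shares the tagged allele and no sample lacks YTHDF2. The age of the embryos was not given in the sources used here. The series holds 4 samples, namely 2 biological replicates of the m6A immunoprecipitation (IP) and 2 input samples, and the IP peak lists were analysed here (15635 peaks in replicate 1 and 14872 in replicate 2). There was 1 group of cells and no second condition, so all values below are descriptions with the 2 replicates set side by side.

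Carriers of this family share a fold of repeated membrane-spanning helices and move metabolites, nucleotides, cofactors and ions across the inner mitochondrial membrane, with a few members placed in the outer membrane or in peroxisomes. They are encoded in the nucleus, translated in the cytosol and imported into mitochondria. Developing red cells depend on several of them, since haem is made from mitochondrial iron and glycine. m6A is added to mRNA by the METTL3 and METTL14 complex, often near the stop codon and in long exons, at the motif DRACH (in DNA letters, any base but C, then a purine, then AC, then any base but G), and YTHDF2 is a reader that promotes the decay of transcripts carrying it.

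A gene was called when the summit of a peak, its highest point, lay in one of its exons. Of the 47 Slc25a genes, 23 (48.9%) were called in both replicates, beside 30.9% of all protein-coding genes. Counting either replicate, 26 genes (55.3%) were called, beside 37.1% of all protein-coding genes. A further look at the size of the peaks changed this picture. With peaks below 4-fold enrichment left out, 7 Slc25a genes (14.9%) were called in both replicates, beside 16.9% of all protein-coding genes. The peak need not be the same in each replicate. Slc25a44 was kept by its stop codon peak in replicate 1 (4.99-fold) and its exon 1 peak in replicate 2 (4.15-fold). The family was thus above the background in having a peak at all and near it in having one of at least 4-fold enrichment. Neither difference was tested, and fold enrichment is only 1 measure of a peak's strength. A gene without a peak may be unmethylated or too little expressed to give one, and expression was not analysed here. In these bulk cells, fewer cells of a type and less RNA per cell cannot be told apart.

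The sequences below are motif matches near the summits of the strongest peaks. Each is 21 bases of the sense strand of GRCm38, 5′ to 3′, around the A of the GGAC (or, where no GGAC lay within 100 nt, of the DRACH) nearest to the midpoint between the summits of the 2 replicates. Capitals mark that motif. They are given for the members with the highest −log10 q (the larger, the less likely the peak under the caller's background), taking the lower of the 2 replicates, other than Slc25a46, and for the mitoferrin Slc25a37.
Slc25a21: gcaagttcGGACcccctccgc
Slc25a36: atcacagtGGACcatggaatc
Slc25a44: acctagagGGACaaggggtga
Slc25a15: ttgatgatGAACCaattggaa
Slc25a51: gctggccgGGACgacggaagc
Slc25a24: gagtgtcaGGACtttacagag
Slc25a10: cacaagagGGACcaccgtgct
Slc25a35: cgaacagtGGACagtttctgt
Slc25a28: accccactGGACgtttgtaaa
Slc25a37: accccgctGGACgtctgcaaa
The site of Slc25a21 is at chr12:57197103-57197123 on the minus strand, in the 5′ UTR of a transcript other than the chosen one. The site of Slc25a36 is at chr9:97078985-97079005 on the minus strand, in the 3′ UTR 51 nt past the stop codon. The site of Slc25a44 is at chr3:88420645-88420665 on the minus strand, in the coding part of exon 2. That of Slc25a15, at chr8:22377866-22377886 on the minus strand, is in the coding sequence just before the stop codon, and that of Slc25a51, at chr4:45399737-45399757 on the minus strand, is nearer the middle of the coding sequence. The site of Slc25a24 is coding and at chr3:109166392-109166412 on the plus strand, and that of Slc25a10 is in the 3′ UTR at chr11:120498641-120498661 on the plus strand. The site of Slc25a35, at chr11:68973688-68973708 on the plus strand, is in the 3′ UTR of a transcript other than the chosen one. The coding sites of the mitoferrins are at chr19:43664363-43664383 (Slc25a28) and chr14:69245074-69245094 (Slc25a37), both on the minus strand. In Slc25a51, Slc25a28 and Slc25a37 the base after GGAC is G, so that these 3 sites hold GGAC but not DRACH. Each of these peaks still had a DRACH within 50 nt of its summit, other than the GGAC printed. From the summits of replicates 1 and 2 (minus is upstream), the nearest DRACH lay at −11 and 32 nt in Slc25a28. It lay at 3 and 21 nt in Slc25a37 and at −39 and 43 nt in Slc25a51. A GGAC was taken even where a DRACH lay nearer to the summits, as in Slc25a10. GGAC lay within 100 nt of 84.5% of the family's summits placed on a transcript, so a match was likely. A match is a description of the letters under a peak, and which A was methylated was not measured.

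Counts by substrate group, here and below, stand beside 30.9% of all protein-coding genes and 48.9% of the family called in both replicates. The groups hold 3 to 9 genes and were chosen with earlier results known, and differences between them were not tested. Among the 8 adenine nucleotide and phosphate carriers, 3 were called in both replicates, 1 in replicate 1 only and 4 in neither. The 3 were the calcium-regulated ATP-Mg/phosphate carriers Slc25a23, Slc25a24 and Slc25a25, which load the matrix with adenine nucleotides. Their short relative Slc25a41 had no summit in an exon. The strongest peak of Slc25a24 had a fold enrichment (IP signal over local background at the summit) of 10.5 in replicate 1 and 8.45 in replicate 2, on 46 and 38 IP reads over a background of 4 and 3.4 reads. That of Slc25a25 was 3.87-fold and 4.52-fold enriched, and that of Slc25a23 3.1-fold and 2.36-fold. Slc25a24 was the most enriched of the 3 in both replicates, and all 3 peaks lay within 200 nt of the stop codon. Slc25a25 had a second peak in the 3′ UTR in both replicates, 789 and 814 nt past the stop codon, with enrichment of 2.73 and 2.22.

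None of the ADP/ATP translocases, which export the ATP made by oxidative phosphorylation, was called in both replicates, beside 30.9% of all protein-coding genes. With so few genes this does not show a lack of peaks. Slc25a4 and the germ cell member Slc25a31 had no peak, nor had the phosphate carrier Slc25a3. Slc25a5, the translocase of proliferating cells, had 1 peak in replicate 1, 123 nt into the coding sequence, of 2.22-fold enrichment on 172 IP reads over a background of 88 reads. Replicate 2 held no peak there. The peak of Slc25a5 has 8 copies of at least 90% identity over at least 50% of its length elsewhere in the genome, the best of them a processed pseudogene (97.7% over 72.6%), and how reads matching several places were counted is not stated, so its height is uncertain. The pseudogene Slc25a5-ps held no summit in either replicate.

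**Figure D1:**
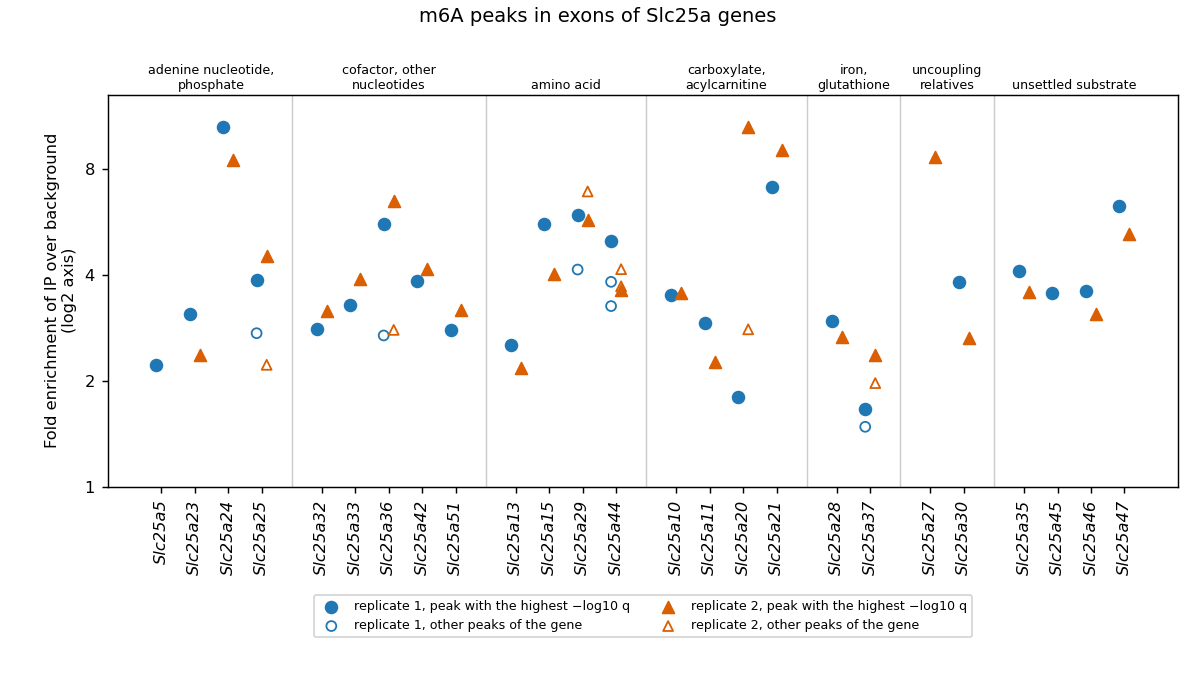
Fold enrichment of IP over local background (log2 axis) of each exonic peak in 25 Slc25a genes with a peak, by substrate group. Circles are replicate 1, triangles replicate 2, filled symbols the peak of each gene with the highest −log10 q and open symbols its other peaks. The filled symbols of Slc25a24, Slc25a21, Slc25a36, Slc25a15, Slc25a47 and the low-read Slc25a29 sit above 4-fold in both replicates, and most others lie between 2-fold and 4-fold.

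Of the 9 cofactor and other nucleotide carriers, 6 were called in both replicates. Among them were Slc25a32 (folate and FAD), Slc25a33 and Slc25a36 (pyrimidine nucleotides), Slc25a42 (coenzyme A) and Slc25a51 (NAD+). Those not called, Slc25a16, the peroxisomal Slc25a17 and the S-adenosylmethionine carrier Slc25a26, had no summit in an exon. S-adenosylmethionine is the methyl donor of m6A itself. Slc25a36 was the most enriched of the group, at 5.59-fold and 6.49-fold on 73 and 74 IP reads. Its peak covered the stop codon, and a smaller one lay in coding exon 6 in both replicates (2.69-fold and 2.79-fold).

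The Slc25a36 values carry a caution. Its stop codon peak matched a sequence on chromosome 2 that the annotation gives in part as the unprocessed pseudogene Gm13217, with 99.7% identity over 80.4% of the peak in replicate 1. That copy had peaks of its own, of 8.22-fold enrichment on 79 IP reads in replicate 1 and 5.03-fold on 73 IP reads in replicate 2. The reads at Slc25a36 and at the copy were therefore alike in number, and how they are divided between the 2 places is not known from the peak lists. The exon 6 peak also matched that copy (99.4% identity over 65.2% of the peak in replicate 1), which had a peak there in replicate 1 only, of 4.36-fold on 30 IP reads.

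Other members of the cofactor group were less enriched. Slc25a42 was at 3.83-fold and 4.15-fold and Slc25a33 at 3.28-fold and 3.88-fold. Slc25a32 was at 2.8-fold and 3.15-fold. In replicate 2 each of these 3 peaks was higher than in replicate 1. Slc25a51 had the widest peak of the family (1375 bp and 1371 bp), with a summit 400 and 437 nt into the coding sequence, within a single last exon of 4257 nt, and an enrichment of 2.79 and 3.17. A processed pseudogene resembles it (93.2% identity over 86% of the peak) but held no peak. Slc25a32 has the longest 3′ UTR among the called members, 4739 nt, and its summits lay near the start of it, 336 and 354 nt past the stop codon.

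Of the 9 amino acid carriers, 4 were called in both replicates and 5 in neither. Slc25a44, a carrier of branched-chain amino acids, was the only member with 3 peaks in each replicate. They lay at the stop codon (4.99-fold and 3.71-fold on 113 and 112 IP reads), in coding exon 2 of 4 (3.82-fold and 3.61-fold on 133 and 124 reads) and in exon 1 (3.26-fold and 4.15-fold on 65 and 60 reads). At 638 nt, exon 2 of Slc25a44 is the longest internal exon of any member with a peak in both replicates. Summits of the 3 pairs lay 1, 10 and 34 nt apart between the replicates.

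Slc25a15, the ornithine carrier of the urea cycle, had a stop codon peak that reached 5.58-fold (102 IP reads) and 4.02-fold (96 IP reads). Its relative Slc25a2, an intronless gene with 74.9% identity in the aligned coding sequence, had none. Slc25a13 (citrin, an aspartate/glutamate carrier) was at 2.53-fold and 2.18-fold, and its summit was at the same base in both replicates, at 95.5% of the coding sequence. Slc25a12, the aspartate/glutamate carrier of 72.1% identity to it, had no summit in an exon, though its 3′ UTR of 4092 nt is among the longest of the family. Slc25a29, a carrier of basic amino acids, had a coding peak of 5.91-fold and 6.9-fold enrichment and a peak past the stop codon of 4.14-fold and 5.73-fold, but on only 8 to 17 IP reads each. It is therefore the least certain of the genes called in both replicates by depth. The glutamate carriers Slc25a18 and Slc25a22 and Slc25a38, the carrier that brings glycine to haem synthesis, had no summit.

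Of the 5 carboxylate and acylcarnitine carriers, 4 were called in both replicates, and the citrate carrier Slc25a1 in neither. Slc25a21, the oxodicarboxylate carrier, had the highest lower −log10 q of the family (33.1), at 7.09-fold (68 IP reads) and 9.05-fold (75 IP reads). The summits of the replicates were 1 nt apart. They lay in a first exon of 600 nt, in the 5′ UTR of an alternative transcript, and not on the transcript with the longest coding sequence. Slc25a10, the dicarboxylate carrier, was at 3.51-fold and 3.56-fold in its 3′ UTR, 412 and 420 nt past the stop codon. Slc25a11, the oxoglutarate carrier of the malate-aspartate shuttle, was at 2.91-fold and 2.26-fold in the last exon.

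Slc25a20, the carnitine/acylcarnitine carrier of fatty acid oxidation, differed between the replicates. A peak in exon 1, near the start codon, reached 10.5-fold in replicate 2 (32 IP reads over a background of 2) and was not called in replicate 1. The peak that both replicates held, past the stop codon, was at 1.8-fold on 48 reads in replicate 1 (−log10 q of 1.88) and 2.8-fold on 46 reads in replicate 2. The call in both replicates rests on that weak peak, and was lost when a −log10 q of at least 5 was required.

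Of the 4 iron and glutathione carriers, the mitoferrins Slc25a37 and Slc25a28 were called in both replicates and the glutathione carriers Slc25a39 and Slc25a40 in neither. Mitoferrins bring iron into the matrix for haem and iron-sulphur clusters. Both mitoferrin calls were lost when 4-fold enrichment was required, and a link between calls and substrate was not tested. Slc25a28 was at 2.96-fold and 2.67-fold on 134 and 128 IP reads. The matching peak of Slc25a37, the mitoferrin of red cell precursors, was at 1.66-fold and 1.97-fold on 183 and 177 reads. Slc25a37 thus had the most IP reads of any member and among the lowest enrichment, since its background was also the highest, at 126 and 85 reads.

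The mitoferrin peaks were in the same place. Both genes have 4 exons, and both summits lay in the coding part of the last, at 79.5% and 75.5% of the coding sequence in Slc25a28 and 76.2% and 74.4% in Slc25a37. The coding sequences are 72.1% identical over 1008 aligned nt, and once aligned, the summits of the 2 genes were 14 nt apart in replicate 1 and 11 nt apart in replicate 2. The GGAC printed above falls at the same aligned position in both genes. Slc25a28 has 6 GGAC in its coding sequence and Slc25a37 has 10, and 2 of them align. The pair was set side by side after its values were seen, and other related pairs did not line up as closely. Aligned summits of Slc25a33 and Slc25a36 (66.3% identity) lay 327 and 321 nt apart. Those of Slc25a24 and Slc25a25 (67.4%) lay 101 nt apart in replicate 1, with no distance in replicate 2. The remaining pairs compared gave no distance in either replicate.

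Slc25a37 had further peaks that were less alike between replicates. In replicate 2 the peak with its highest −log10 q lay in exon 2 (2.36-fold on 118 reads). In replicate 1 the same stretch was part of a wider peak with a summit in the neighbouring intron (3.19-fold on 160 reads), where replicate 2 had a separate peak (2.76-fold on 158 reads). A 3′ UTR peak of 1.48-fold was called in replicate 1 only. These intronic summits count toward no gene in the totals above.

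Among the 3 relatives of the uncoupling proteins, Slc25a30 was called in both replicates, Slc25a27 in replicate 2 only and Slc25a14 in neither. Slc25a30 was at 3.81-fold and 2.65-fold, with summits 233 nt apart, the largest distance of any matched pair in the family. Slc25a27 reached 8.62-fold in replicate 2, on 12 IP reads over a background of 0.44, and had no peak in replicate 1.

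Of the 9 carriers with little known or unsettled substrate, 3 were called in both replicates, 1 in replicate 1 only and 5 in neither. Slc25a46, an outer membrane protein of mitochondrial dynamics, was at 3.59-fold and 3.09-fold on 150 and 158 IP reads, in the coding sequence of its last exon. Slc25a47, known from liver, was at 6.28-fold and 5.24-fold on 55 and 47 IP reads. Slc25a35 was at 4.09-fold and 3.58-fold, but its summits also lay in exon 1 of the antisense gene Rangrf, from which the peak lists cannot separate it. Its peaks also have 5 copies of at least 90% identity over at least 50% of their length, the best at 99% over 60.2% of the peak in replicate 1 and 72% in replicate 2, so that its height is uncertain as for Slc25a5, though no peak was called at that best copy. Slc25a45 had a peak of 3.55-fold on 49 reads in replicate 1 only. Slc25a34, Slc25a43, Slc25a48, Slc25a53 and Slc25a54 had none.

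**Figure D2:**
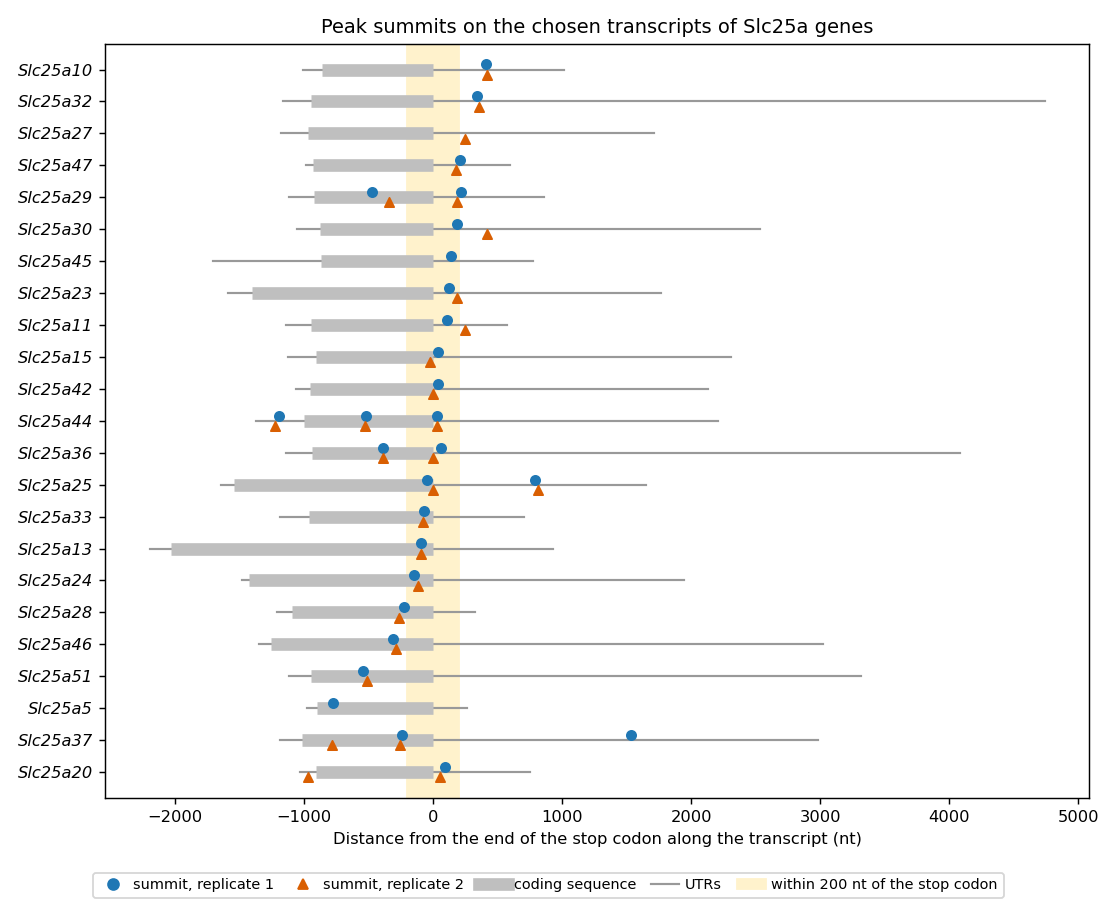
Peak summits (circles, replicate 1; triangles, replicate 2) along the chosen transcript of each of 23 Slc25a genes, as distance in nt from the end of the stop codon. Thick grey bars are coding sequence, thin lines UTRs and the shaded band 200 nt on either side. Summits of many genes lie around the stop codon, also in some with a long 3′ UTR, such as Slc25a36. Those of Slc25a32, with the longest 3′ UTR shown, lie past the band, and Slc25a37 has none in it. Those of Slc25a28, Slc25a46 and Slc25a51 lie inside the coding sequence.

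Each replicate held 31 summits in exons of Slc25a genes, of which 29 lay on the chosen transcript, that with the longest coding sequence. Within 200 nt of the stop codon were 14 of 29 (48.3%, exact 95% interval 29.4 to 67.5) in replicate 1 and 13 of 29 (44.8%, 26.4 to 64.3) in replicate 2, a mean of 46.6% ± 2.44 (SD, n = 2). Over all protein-coding genes the shares were 30.7% and 29.8%. Near the start codon were 2 and 1 of the 29 placed summits, 6.9% (0.846 to 22.8) and 3.45% (0.0873 to 17.8), beside 14.7% and 15.4% over all genes. The Slc25a21 summits, off the chosen transcript, were not counted here. From the start codon of their own transcript they lay at −190 and −189 nt (minus is upstream), within 200 nt of it. Such intervals cover counting error only, and the family's intervals held the shares of all genes at both codons.

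Of the 23 genes called in both replicates, 11 had a summit at the stop codon in each replicate and 15 in at least 1. In 7 genes a summit lay farther inside the coding sequence in each replicate, namely Slc25a28, Slc25a29, Slc25a36, Slc25a37, Slc25a44, Slc25a46 and Slc25a51. The last exon held 86.2% and 82.8% of the placed summits, beside 61.6% and 61.1% over all genes, and in 17 of the 21 genes with all their summits on the chosen transcript it held all of them. Internal exons held 10.3% in each replicate, beside 25.9% and 25.7%. These were exon 2 of Slc25a44 and exon 6 of Slc25a36 in both replicates, exon 2 of Slc25a5 in replicate 1 and exon 2 of Slc25a37 in replicate 2.

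One peak per gene was the common state. In replicate 1, 20 of 25 called genes (80%) had a single summit, and in replicate 2, 18 of 24 (75%), beside 59.6% and 60.2% of all called genes. At least 2 summits in each replicate were found in 5 members (10.6%), Slc25a25, Slc25a29, Slc25a36, Slc25a37 and Slc25a44, beside 10.9% of all protein-coding genes. The median coding sequence was 957 nt in the family beside 1173 nt for all protein-coding genes. Among genes called in both replicates it was 951 nt beside 1512 nt. Whether length bears on the number of peaks was not tested.

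GGAC lay within 50 nt of 51.7% (exact 95% interval 32.5 to 70.6) and 58.6% (38.9 to 76.5) of the placed summits, beside 57% and 56.7% over all genes. DRACH lay as near in 93.1% of them in each replicate, beside 93.9% in each. Both shares were close to those of all exonic peaks. Both motifs were searched along the spliced mRNA in its sense direction only, and GGAC followed by A, C or T is also DRACH, so that the 2 shares overlap.

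**Figure D3:**
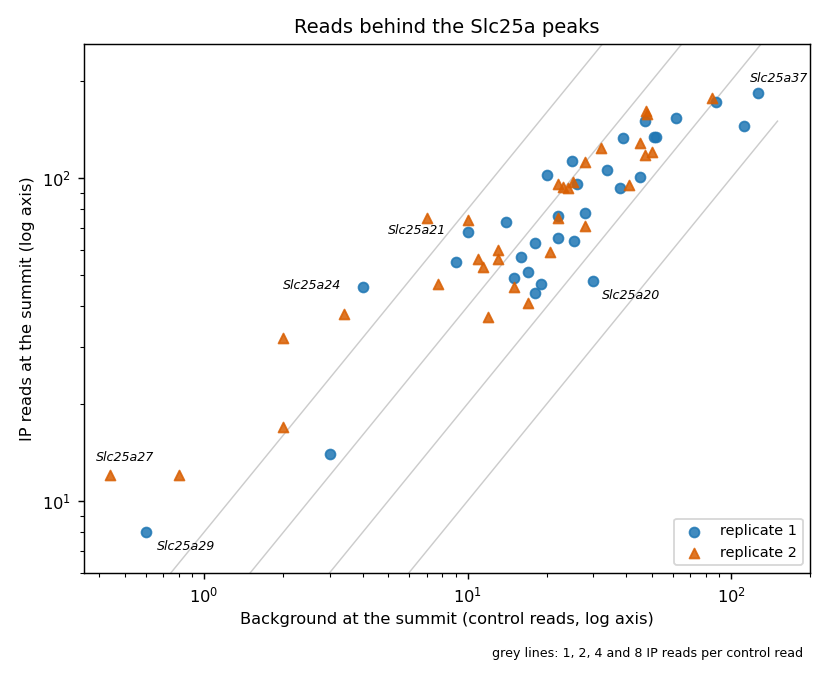
IP reads at the summit against the local background in control reads, both on log axes, for the 31 exonic peaks of Slc25a genes in each replicate (circles, replicate 1; triangles, replicate 2), with grey lines of equal ratio. Slc25a37 lies at the upper right with many reads on both axes, and Slc25a27 and Slc25a29 at the lower left rest on 8 to 17 IP reads.

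The family's peaks were low for the reads they held. Their median fold enrichment was 3.51 in replicate 1 and 3.61 in replicate 2, beside 4.11 and 4.29 over all exonic peaks of protein-coding genes. The median IP reads at the summit were 76 and 74, beside 71 and 68, and the median background was 25 and 20.6 control reads, beside 18 and 14. The median −log10 q was 16.1 in each replicate, beside 16.6 and 16.1. The spread was wide, from 1.48-fold (Slc25a37) to 10.5-fold (Slc25a24) in replicate 1 and from 1.97-fold (Slc25a37) to 10.5-fold (Slc25a20) in replicate 2. Most peaks rested on many reads, with lower and upper quartiles of 53 and 123 IP reads in replicate 1.

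The replicates were close to each other for the peaks they shared. Of the 31 peaks, 28 of replicate 1 (90.3%) and 29 of replicate 2 (93.5%) overlapped a peak of the other by at least 1 bp, beside 85.1% and 87.3% of all exonic peaks. In 28 pairs of peaks matched one to one, from all 23 genes called in both, the median distance between summits was 28.5 nt and 22 pairs lay within 50 nt. The fold enrichment differed by less than 2-fold in all 28 pairs, with an SD of the log2 ratio of 0.32 and a median of 0.04, and it was higher in replicate 2 in 15 pairs.

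**Figure D4:**
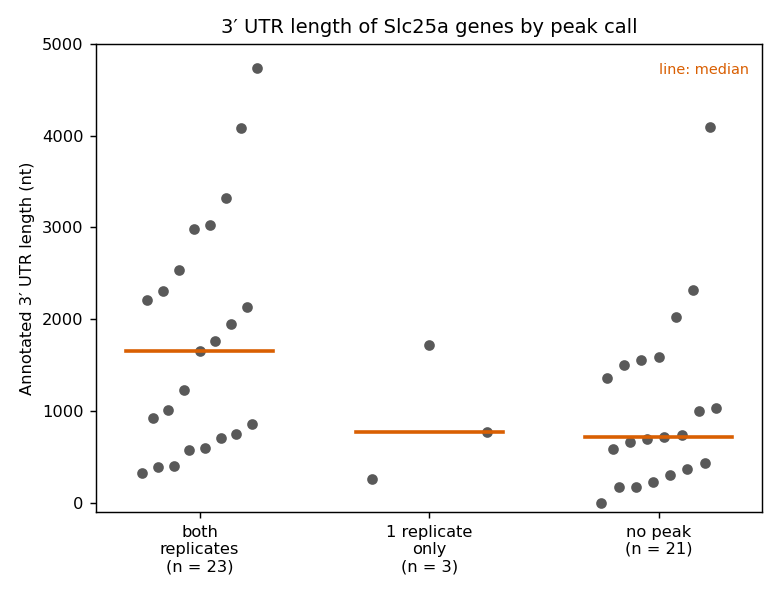
Length of the annotated 3′ UTR (nt) of the chosen transcript of each Slc25a gene, by whether a peak was called in both replicates (23 genes), in 1 replicate only (3) or in none (21). Lines are medians. The median is 1651 nt in the genes called in both and 718 nt in those without a peak, and the ranges overlap.

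Members with and without a peak differed little in coding length and more in the length of the last exon. The median coding sequence was 951 nt in the 23 genes called in both replicates and 972 nt in the 21 without a peak. The median 3′ UTR was 1651 nt (325 to 4739) against 718 nt (0 to 4092), and the median last exon 1836 nt against 866 nt. The groups overlapped throughout, with Slc25a28 called on a 3′ UTR of 325 nt and Slc25a12 not called on one of 4092 nt. Over all protein-coding genes the median 3′ UTR was 1173 nt in called genes and 545 nt in the rest. Among members with a 3′ UTR of at least 1000 nt, 14 of 24 (58.3%) were called in both replicates, beside 41.8% of all such genes, and among the shorter, 9 of 23 (39.1%), beside 23.3%. The family's share stood above the background in both length classes. By exons, 16 of 28 members (57.1%) with a longest exon of at least 1000 nt were called in both, beside 39.7% of all such genes. Of the rest, 7 of 19 (36.8%) were called, beside 19.3%. These intervals too (37.2 to 75.5 and 16.3 to 61.6) held the background shares. All 23 called members were among the 44 with a last exon of at least 400 nt (52.3%, beside 35.2%), and none of the 3 members with a shorter one was called, beside 13.2% of all such genes.

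Genes around the family were read from a list of 21 other mitochondrial carriers and import factors. In both replicates 11 of them were called, beside 30.9% of all protein-coding genes, 1 in replicate 1 only (Timm8a1) and 9 in neither. Among carrier family proteins named outside the Slc25a symbols, Mtch2 was called (9.53-fold and 7.39-fold) and Ucp1, Ucp2, Ucp3 and Mtch1 were not. Of the other inner membrane carriers, 3 of 7 were called, namely the pyruvate carrier subunit Mpc2 (6.98-fold and 7.89-fold), the serine carrier Sfxn1 (2.53-fold and 2.44-fold) and Sfxn5 (9.57-fold and 12-fold). The import path that brings carrier proteins from the cytosol to the inner membrane had 7 of 9 genes called, among them the insertase Timm22 (4.01-fold and 2.07-fold) and its partner Timm29 (3.37-fold and 3.28-fold). Most were weak, such as the chaperone Timm9 (2.23-fold and 1.88-fold), and the strongest peak of none of the 7 reached 4-fold in both replicates. The receptor Tomm70a and the chaperone Timm10b were called and Timm10 was not.

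Marker genes were read in the same way beside the labelled cells, by peaks only, and each count below stands beside the 30.9% of all protein-coding genes called in both replicates. Of the stem and progenitor markers 4 of 6 were called in both replicates (Gata2, Tal1, Runx1 and Cd34), while Kit, the marker used for enrichment, and Myb had no summit, and a peak list does not give their expression. Of the erythroid markers 3 of 5 were called (Klf1, Epor and Hbb-bt), with Tfrc called in replicate 1 only and Gata1 in neither. Hepatocyte markers, from the other main cell of foetal liver, were called for Apoa1 (4.85-fold and 5.24-fold) and Hnf4a (6.59-fold and 8.44-fold) of 5, a share near that of all genes, with Afp called in replicate 1 only on 7 IP reads and Alb and Ttr at 0 summits, and macrophage markers for Csf1r and Vcam1 of 4. Slc25a47, the carrier known from liver, had peaks beside these, and the part of such cells in the family's values was not tested.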

How the data were processed

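Per the labels and methods, the authors aligned the reads of each IP replicate to GRCm38 (mm10) with HISAT2 and called peaks per replicate with MACS2 (version 2.1.1.20160309, nomodel option). Threshold, genome size, control library and the treatment of reads matching several places are not given in the sources used here. The deposited lists give each peak's fold enrichment, −log10 p-value, −log10 q-value, whole-number score and summit offset. Fold enrichment was read as the ratio of scaled IP to scaled local background with 1 added to each. Where the background is low, it is therefore well below the plain ratio of reads. The smallest −log10 q was 1.31 and 1.30. Library depth was not used here. IP reads and background at each summit were recovered from fold and p, which the Poisson form of MACS2 ties together (100% of peaks matched within 0.001 in −log10 p). In simulated peaks of each replicate 100% were recovered, but these were built with the same formula, so this checks only the arithmetic. Background is in control reads before the caller's scaling (by 0.874 in replicate 1 and by 1 in the other), and need not be whole. That scaling was inferred from the commonest low background value and was not checked otherwise. IP reads are also before scaling (by 1 in replicate 1 and by 0.952 in the other, the latter fitted to fold and p).

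Exons were those of the GENCODE M21 basic set, and positions those on the transcript with the longest coding sequence, with the window of 200 nt around the stop codon taking precedence, then that around the start codon. Sequences and copies came from the reference of the same build (samtools 1.23.1, BLAST+ 2.17.0). Python 3.11.15, NumPy 2.4.6, SciPy 1.17.1 and pandas 2.3.3 were used. Intervals are exact binomial (95%). With 1 group there was no test. The rule was to name every member, with values of the strongest peak by −log10 q for each called member (1 of them is counted but not reported here), and sequences for the 10 strongest and the mitoferrins where shown. The members, substrate groups and lists were chosen with earlier results of these data known. Alternatives were thresholds, overlap rules, annotation, windows and leaving out a replicate.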

Additional observations from a re-analysis of the deposited data

How the results depend on the processing

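Of 9 alternatives for the count of 23 Slc25a genes called in both replicates, 8 kept it within 22 to 25 (24 to 25 when 1 replicate was left out). Requiring 4-fold enrichment lowered it to 7 and the count of 26 in either replicate to 12. The 16 genes lost from both include Slc25a28, Slc25a37 and Slc25a46. A −log10 q of at least 5 lost Slc25a20, at least 20 IP reads lost Slc25a29, and leaving out summits shared with another gene lost Slc25a35. Without 1 replicate, the count for either was 24 to 25. The stop codon share of 46.6% was 27.6% with a window of 100 nt, 72.4% with 400 nt, 41.7% on the longest transcript, 60.4% for peaks of at least 4-fold, 49.1% for shared peaks, and 44.8% to 48.3% without 1 replicate. The GGAC share of 55.2% was 24.1% within 25 nt, 84.5% within 100 nt, 93.1% for DRACH, and 51.7% to 58.6% without 1 replicate. The share of peaks found in both replicates, 91.9%, was 87.1% at 50% reciprocal overlap, 80.6% for summits within 100 bp, 88% at a −log10 q of at least 5 and 68.1% at 4-fold. The median fold enrichment of 3.56 kept to 3.51 to 3.61 in all 4 alternatives. Widening or narrowing a window changes these shares by construction, and for the other changes the cause was not tested. Peaks on few reads (8 to 17 for Slc25a29, 12 for Slc25a27) limit what enrichment can be read from them. No paired analysis was possible because the 2 IP samples form 1 group and the results come from no test.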

Other observations

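Some peaks had summits in Slc25a genes but outside their exons, or past their ends, and count toward no called gene or exonic summit above. That of Slc25a37 in replicate 1 enters only as the peak that the exon 2 peak of replicate 2 overlapped. An intronic peak of Slc25a47 had its summit at the same base in both replicates, with 4.73-fold enrichment on 12 IP reads in replicate 1 and 12.9-fold on 19 reads in replicate 2. Slc25a42 had an intronic peak of 7.32-fold on 14 reads, and Slc25a12, which had no exonic summit, one of 4.71-fold on 49 reads that reached into an exon, both in replicate 1 only. Peaks past the annotated 3′ end but within 5000 bp of it were found for Slc25a16 (1.96-fold on 49 reads) and Slc25a33 (4.04-fold on 7 reads) in replicate 1 and for Slc25a41 (6.67-fold on 41 reads, 1248 bp past the end) in replicate 2. Each of these 3 was absent from the other replicate's list. Whether they belong to longer transcripts of these genes was not tested.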
